A study of Mus musculus with 8 samples.

Results

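The imprinted genes Igf2r, Airn, Kcnq1, Kcnq1ot1, Cdkn1c and Gnas were examined in mouse liver by reduced representation bisulfite sequencing (RRBS), in which DNA is cut at MspI sites (CCGG) and the bases next to each cut are read after bisulfite conversion. A CG was a member when it lay in 1 of these genes or within 5 kb of it in the mm9 genome (GENCODE M1 annotation) and had at least 10 reads in every library, counting the reads of both strands and of all allele classes together. There were 108 member CGs among 183388 CGs that met the same coverage minimum genome-wide: 59 at Gnas on chromosome 2, 28 at Kcnq1 and 4 at Cdkn1c on chromosome 7, and 17 at Igf2r and Airn on chromosome 17. Of the Kcnq1 CGs, 4 lay at the start of Kcnq1ot1, which has no entry in this annotation. Its start was therefore placed at position 150482452 of chromosome 7, minus strand, by a unique match of the RefSeq promoter sequence to the genome.

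The study mated 2 inbred strains, C57BL/6J, called B6, and DBA/2J, called DBA, in both directions, giving BXD mice with a B6 mother and a DBA father and DXB mice with a DBA mother and a B6 father. Liver DNA was taken from mice 16 weeks old after a fast of 16 h, with 1 female and 1 male of each of B6, DBA, BXD and DXB, so each strain and sex is a single animal and a comparison of groups rests on the 4 females and 4 males, or on the 4 F1 mice and 4 parents. Bisulfite sequencing of whole liver averages the cell types of the organ, and DNA methylation files hold no marker transcript with which to check the tissue. Read reach from the MspI cut differed: it was 50 bases in the BXD female and both DXB mice, 76 bases in the male parents, and 100 bases in the female parents and the BXD male. All 3 libraries of 50 bases are thus F1, and only the BXD male separates F1 from reach.

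In an imprinted cluster 1 parental copy is silenced, and the silencing is set in the germ line by methylation of a control region on 1 of the parental chromosomes. A control region is therefore expected to be methylated on 1 chromosome and bare on the other, which a bisulfite assay of both reads as an intermediate level. At Igf2r, the receptor that clears insulin-like growth factor 2, the maternally methylated control region holds the promoter of the noncoding RNA Airn inside an Igf2r intron. At Kcnq1, which encodes a potassium channel subunit, the control region holds the promoter of the noncoding RNA Kcnq1ot1, and the cluster includes Cdkn1c, an inhibitor of cyclin-dependent kinases. Gnas encodes the stimulatory G protein alpha subunit and has alternative first exons: Nesp, whose promoter is methylated on the paternal chromosome, and XL and exon 1A, both methylated on the maternal one, with the antisense RNA Nespas starting between Nesp and XL.

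The sequences below are the fragment ends that carried the main contrasts in level, read from the plus strand of the mm9 genome, with every member CG in capitals. The first 5 come from the regions with intermediate levels, though not every CG in them was intermediate by the mean. The first 2 CGs of the XL sequence were above 70%. Some CGs lay below the intermediate class, with means of 24.5 to 26.8% in the Kcnq1ot1 sequence and 25.8 to 29.1% in the exon 1A sequence. The Igf2r first exon changed class between libraries, and the last 2 are an unmethylated promoter and a methylated gene body for comparison. The sequences lie at chr17:12934455-12934618 (Airn start), chr2:174111061-174111226 (Nesp intron), chr2:174123519-174123670 (XL exon), chr7:150481373-150481418 (Kcnq1ot1 start), chr2:174154238-174154267 (exon 1A), chr17:12962375-12962399 (Igf2r first exon), chr7:150292944-150292990 (upstream of Kcnq1) and chr7:150566618-150566641 (Kcnq1 intron).
Airn start: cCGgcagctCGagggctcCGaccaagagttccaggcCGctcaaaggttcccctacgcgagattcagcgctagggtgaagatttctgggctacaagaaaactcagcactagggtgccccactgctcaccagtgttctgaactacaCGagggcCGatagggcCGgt
Nesp intron: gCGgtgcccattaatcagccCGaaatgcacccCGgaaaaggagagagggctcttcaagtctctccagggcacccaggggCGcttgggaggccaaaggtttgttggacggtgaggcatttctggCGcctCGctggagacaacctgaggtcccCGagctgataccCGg
XL exon: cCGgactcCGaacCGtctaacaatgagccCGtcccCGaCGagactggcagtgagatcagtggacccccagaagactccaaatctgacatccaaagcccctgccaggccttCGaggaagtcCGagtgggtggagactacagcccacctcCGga
Kcnq1ot1 start: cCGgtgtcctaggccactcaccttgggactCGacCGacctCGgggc
Exon 1A: cCGggCGCGatgtgcCGccCGcaaagttgc
Igf2r first exon: cCGgtcccagctgaaCGgccCGcat
Upstream of Kcnq1: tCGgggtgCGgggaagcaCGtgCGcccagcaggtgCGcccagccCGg
Kcnq1 intron: cCGgagaggCGaaattggatcCGt

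By the mean level of the 8 mice, 46 of the 108 member CGs were intermediate (30 to 70%), 30 were methylated (above 80%), 14 were unmethylated (below 20%) and 18 fell between these classes. Intermediate CGs made up 42.6% of the members and 9.68% of all CGs, whereas methylated CGs made up 27.8% of the members and 34.1% of all CGs, and unmethylated CGs made up 12.96% of the members and 47.3% of all CGs. All 8 levels lay within 20 to 80% at 35 members (32.4%), and this held for 7.51% of all CGs. The intermediate CGs were unevenly divided, with 35 at Gnas, 9 at Igf2r and Airn, 2 at Kcnq1 and none at Cdkn1c. The classes are built from the levels themselves and were not tested.

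**Figure D1:**
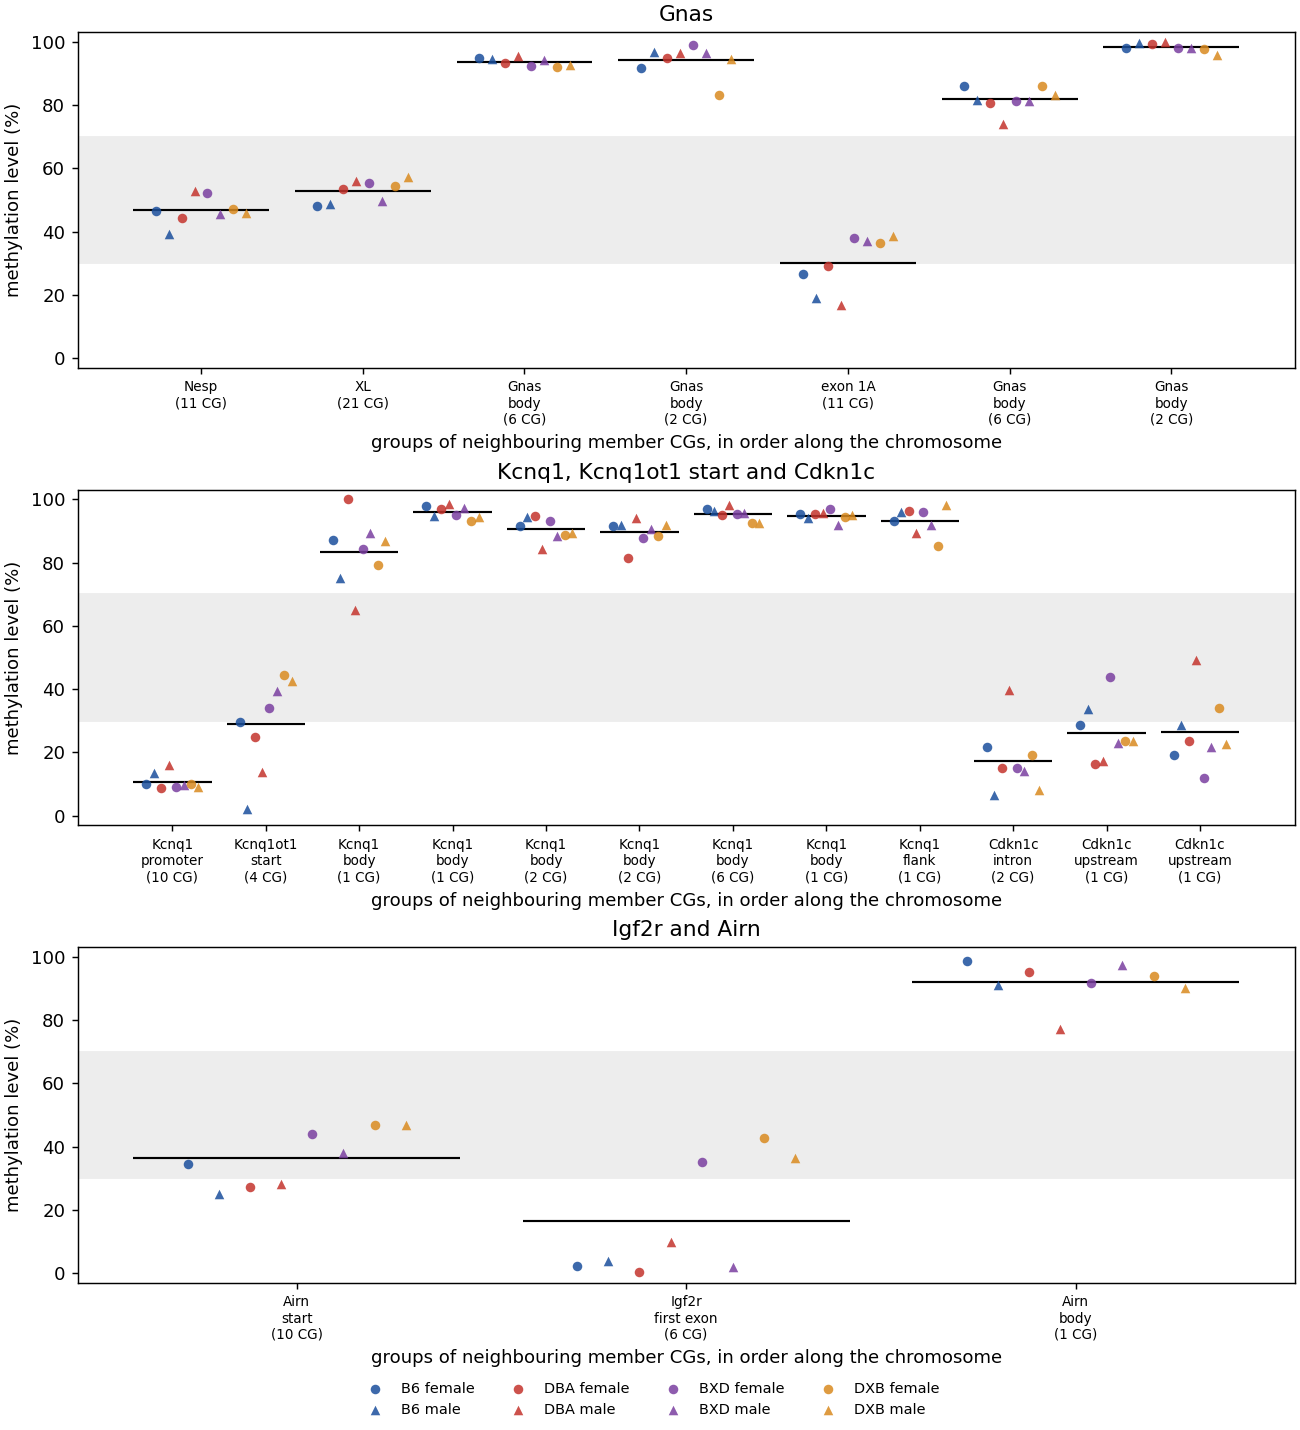
Mean methylation level (%, vertical axis) of each group of neighbouring member CGs in each mouse, in order along the chromosome, for Gnas (top), Kcnq1 with Kcnq1ot1 and Cdkn1c (middle), and Igf2r with Airn (bottom). Circles are females, triangles males, colours strains, black lines the mean of 8 mice, and the grey band 30 to 70%. Nesp and XL lay inside the band in every mouse, the groups in the Gnas, Kcnq1 and Airn bodies lay at 65% or more, and the Igf2r first exon was either at 10% or less or at 35.1% or more.

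Runs of at least 5 successive intermediate CGs, with neighbours at most 1000 bp apart, were counted as stretches. There were 3 among the members, with 39 of the 46 intermediate CGs: 11 CGs at Nesp, 19 CGs at XL and 9 CGs at the Airn start. Over the whole genome 147 such runs held 908 CGs (0.495% of all CGs). At this gap and with all 8 mice the XL stretch, with 19 CGs, was the longest of them. With neighbours at most 500 bp apart it was split into runs of 8 and 7 CGs, and the genome-wide ranking was not repeated. Outside the members the longest run had 16 CGs, and 12 of the 144 runs had at least 9.

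The Nesp stretch covered positions 174110925 to 174111225 of chromosome 2, from a coding exon of Gnas that is also a noncoding exon of Nespas into the introns of both genes. Its mean level was 46.7% ± 4.33 (SD, n = 8), from 39.2% in the B6 male to 52.7% in the DBA male. The largest minimum coverage in the stretch, 37 reads, was shared by 3 CGs, and the one at position 174110928, 8 bp from an annotated Nespas start, was read 37 to 240 times per mouse. It stood at 47.4% in the B6 female, 53.3% in the B6 male, 54.1% in the DBA female, 63.5% in the DBA male, 60% in the BXD female, 45.0% in the BXD male, 55.4% in the DXB female and 57.3% in the DXB male. The sexes overlapped there and the lowest and the highest of the F1 values enclosed 3 of the 4 parental values. Both B6 mice were below both DBA mice at 2 of the 3 CGs that share this minimum. Single CGs of the stretch averaged 36.6 to 54.8%.

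The XL stretch ran from 174123532 to 174125830, mostly in the large coding exon that gives the XL protein its amino-terminal part. Its mean was 49.9% ± 3.86 (SD, n = 8), with the lowest mouse at 44.3% and the highest at 54.6%. The 8 CGs 172 to 434 bp from the annotated start averaged 57.2 to 68.2% each, and single mice there spanned 46 to 92.9%. The 11 CGs 1283 to 2469 bp from it averaged 31.0 to 55.4%, with single mice from 5.97 to 73.3%, and the farthest of them had the highest mean. The best covered CG, at 174125552 and 2192 bp from the start, had 94 to 236 reads and was at 40% in the B6 female, 37.2% in the B6 male, 38.6% in the DBA female, 43.4% in the DBA male, 45.9% in the BXD female, 35.6% in the BXD male, 47.4% in the DXB female and 46.8% in the DXB male. The 3 libraries of 50-base reach were the highest at this CG and the BXD male was the lowest. At 1 of the 2 CGs of the exon left outside the stretch, 167 bp from the start, the mean was above 80%, and at the other it lay between the classes.

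The Airn stretch lay at 12934456 to 12935112 of chromosome 17, 192 to 847 bp from the start of the annotated transcript Airn-005. It lay at the same time in an intron of Igf2r on the other strand. The mean of the stretch was 37.0% ± 8.86 (SD, n = 8). Of 4 CGs with the same coverage, 23 to 208 reads, the first, at 12934456, had a level of 47.2% in the B6 female, 36.9% in the B6 male, 43.5% in the DBA female, 38.9% in the DBA male, 52.8% in the BXD female, 47.6% in the BXD male, 52.8% in the DXB female and 48% in the DXB male. All 4 F1 mice were above all 4 parents at this CG, though the nearest mice of the 2 groups were less than a point apart, and at 2 of the 4 CGs with this coverage the groups overlapped. The same order of F1 and parents was found over the whole region and is compared below.

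**Figure D2:**
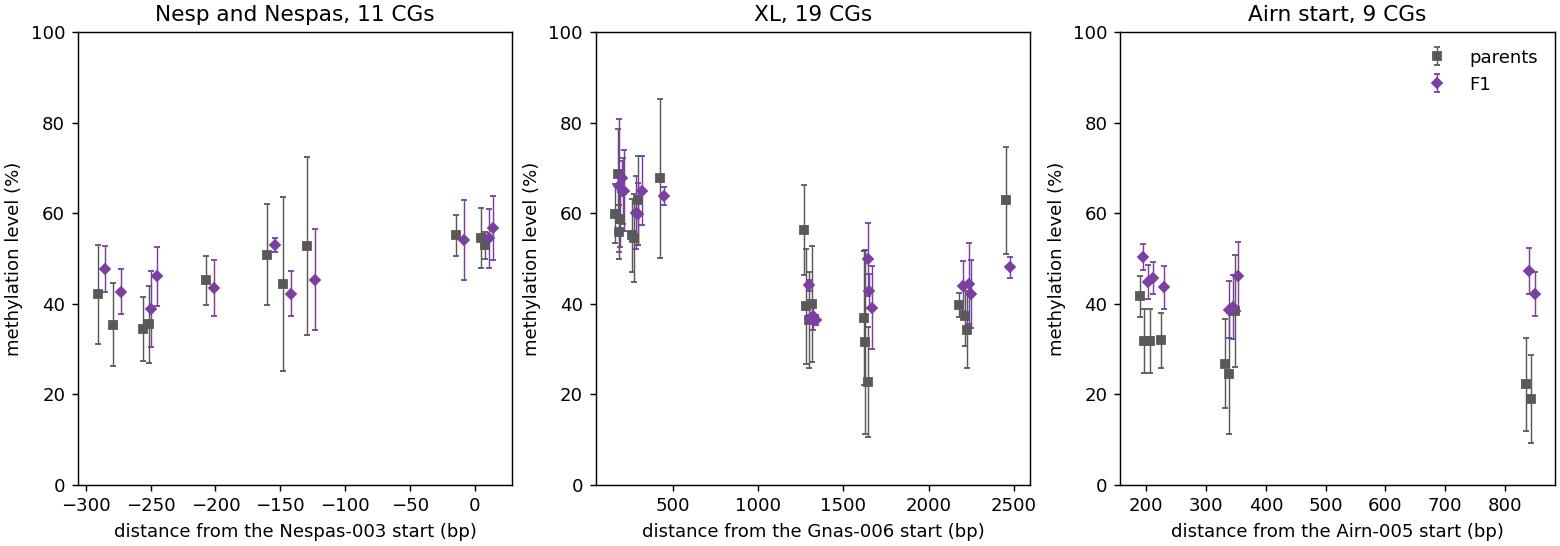
Level (%, vertical axis) of the single CGs in the Nesp, XL and Airn stretches against their distance in bp from the start of an annotated transcript of Nespas, Gnas and Airn. Grey squares are the mean of 4 parents, purple diamonds that of 4 F1 mice, and bars the SD, with the 2 symbols of a CG drawn slightly apart. Parents and F1 overlapped at Nesp and XL, and F1 means lay above the parental means at all 9 CGs of the Airn stretch.

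A further 3 regions had intermediate levels in some mice and did not form a stretch. At Gnas exon 1A, the promoter region of a noncoding first exon, 11 CGs between 174154045 and 174154283 averaged 30.2% ± 8.71 (SD, n = 8), 4 of them intermediate and 7 just below. The mean of these 11 CGs was 26.7% in the B6 female, 18.9% in the B6 male, 29.1% in the DBA female, 17% in the DBA male, 37.9% in the BXD female, 36.9% in the BXD male, 36.5% in the DXB female and 38.6% in the DXB male. The F1 mice lay close together and above the parents, among which both males were the lowest. At the Kcnq1ot1 start, 4 CGs read from 1 fragment end 1039 to 1078 bp inside the transcript averaged 28.9% ± 14.8 (SD, n = 8). Their mean level was 29.5% in the B6 female, 2.27% in the B6 male, 25% in the DBA female, 13.7% in the DBA male, 33.9% in the BXD female, 39.4% in the BXD male, 44.6% in the DXB female and 42.6% in the DXB male. The B6 male, with 11 reads at each of these CGs, was far the lowest.

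Sorted reads, which carry a SNP, gave the strain of the chromosomes on both sides of the 3 loci, at some distance. At the 10 nearest CGs with such reads on each side of Kcnq1 and Cdkn1c, 98.9% and 99.2% of the sorted calls of the library labelled B6 male were DBA, against 0 and 1.71% beside Igf2r and 0 on both sides of Gnas. These CGs lay 3459 to 3521 kb before and 1017 to 1330 kb after the Kcnq1 window, and over all sorted CGs within 2 Mb 83.3% of the calls of this library were DBA. Differences at the Kcnq1ot1 start are therefore also given without it.

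At the Igf2r promoter, 6 CGs in the first exon, 110 to 154 bp inside the gene at 12962376 to 12962421, averaged 16.6% ± 18.2 (SD, n = 8). They were read from 1 fragment end, with 10 reads at each CG in the DBA male. The mean of the 6 CGs was 2.33% in the B6 female, 3.70% in the B6 male, 0.355% in the DBA female, 10% in the DBA male, 35.1% in the BXD female, 1.85% in the BXD male, 42.8% in the DXB female and 36.4% in the DXB male. The mice fell into separate sets, 3 F1 libraries at 35.1% or more and the parents with the BXD male at 10% or less. The 3 high libraries are the ones with a reach of 50 bases. At all 6 CGs the lowest of those 3 was at least 15 points above the highest of the other 5, a pattern found at these 6 members and at 0.0431% of all CGs. The reverse, at least 15 points lower, was found at no member and at 0.115% of all CGs.

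The other groups of CGs were mostly methylated or unmethylated, with Cdkn1c as an exception. Upstream of Kcnq1, 10 CGs 47 to 374 bp before the start averaged 10.7% ± 2.57 (SD, n = 8), 8 of them unmethylated and 1 intermediate. The B6 male at 13.5% and the DBA male at 15.9% were above the other 6, which spanned 8.62 to 10%. These are the male parents and also the libraries of 76-base reach. The DBA male had only 14 to 23 reads at each CG from 150292785 to 150292979. In the body and downstream flank of Kcnq1, 14 CGs were all methylated, with group means of 83.4 to 96.0%. The Gnas bodies between and beyond the alternative first exons held 16 CGs in 4 groups, whose means were 81.8 to 98.3%, with 1 CG at 59.4%. At Cdkn1c, 2 intron CGs averaged 17.4% ± 10.4 (SD, n = 8) and single CGs 3158 and 4290 bp upstream averaged 26.3% each. Only 1 of the 4 Cdkn1c CGs was unmethylated by the mean and the other 3 lay between the classes. The single Airn CG far from the control region was at 91.9% ± 6.67 (SD, n = 8).

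The genes next to the clusters gave the setting. Next to Igf2r, the 15 CGs of Slc22a3, an organic cation transporter, were methylated at 10 and intermediate at 2. In the Kcnq1 cluster, 106 CGs of the genes from Th to Osbpl5 were unmethylated at 86 and intermediate at 3. Those of Cd81, Tssc4, Trpm5, Phlda2, Slc22a18 and Nap1l4 were unmethylated throughout, though some of these windows overlap and share CGs. In the Gnas cluster, 16 CGs of Th1l, Ctsz and Tubb1 were methylated at 15. Nespas shares its CGs with Gnas: 30 of its 32 were intermediate.

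The surroundings of the intermediate members were rich in CG. Within 100 bp on each side, intermediate members had a median of 11.5 CGs and an observed to expected CG ratio of 0.609, whereas intermediate CGs of chromosomes 2, 7 and 17 as a whole had 5 and 0.349. Unmethylated members had 20 and 0.767, and methylated members had 5 and 0.367. The letters TGCCGC, which occur in the recognition sequence of the zinc finger protein ZFP57, a protein that keeps imprints methylated after fertilisation, were searched on both strands, where GCGGCA is their complement. They were present in the window of 12 of 46 intermediate, 6 of 14 unmethylated, 9 of 18 in-between and none of 30 methylated members, or 25% of all members. Over those chromosomes they were present in 12.6% of the windows, with 6.36% of the intermediate, 19.9% of the unmethylated, 6.99% of the in-between and 4.67% of the methylated CGs. Neighbouring members share windows, so these shares are a description. The exon 1A sequence printed above holds TGCCGC once.

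Reads of the F1 mice could not be divided by parent at any member. Among 243450 calls in the Igf2r and Airn window, 955752 in the Kcnq1 and Cdkn1c window and 531625 in the Gnas window, 0 carried a sorting SNP, and the nearest sorted CG was 269 kb, 1017 kb and 739 kb away. Genome-wide 13920 CGs had at least 10 maternal and 10 paternal reads in 3 or more F1 mice, and 0 of them were members, so no test of maternal against paternal methylation was possible here. The intermediate levels are therefore levels over both chromosomes.

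F1 mice were compared with parents by limma on the level in percent, with 1 mean per genotype and adjustment over all 183388 CGs. No member passed an adjusted p of 0.05, and 1 CG of the genome did (0.000545%). The lowest adjusted p among the members was 0.431 (limma, Benjamini-Hochberg), at 174154239 in Gnas exon 1A, where F1 exceeded parents by 13.02 ± 1.85 points (SE). Without adjustment 29 of 108 members (26.9%) had a p below 0.05, against 7.30% of all CGs. Of these 29, 24 were higher in F1 (22.2% of members, against 3.48% of all CGs). They lay in the same few places: 7 of 11 CGs at exon 1A, 7 of 10 at the Airn start, 5 of 6 at the Igf2r first exon and 3 of 4 at the Kcnq1ot1 start, with 2 elsewhere. The 7 at exon 1A lay along 1 fragment end, as did those at the Igf2r first exon and those at the Kcnq1ot1 start, so they are not separate measurements. A quasi-binomial model of the counts called 0 members and gave 23 with a p below 0.05 (6.48% of all CGs had one), of which 21 were higher in F1. Without the library labelled B6 male the limma count at the Kcnq1ot1 start was again 3 of 4, with a lowest adjusted p of 0.581. The median difference was 2.95 points over the members and 0.00 over all CGs. Over the 144 runs of intermediate CGs outside the members, the median difference of the run means was 3.96 points.

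Of the 22 groups of neighbouring CGs, F1 mice had the higher mean in 10 and the lower in 12, and all 4 were above all 4 parents in 3. At the Airn start (10 CGs) F1 mice averaged 43.8% ± 4.13 (SD, n = 4) and parents 28.7% ± 3.99 (SD, n = 4), and the lowest F1 mouse, the BXD male at 38.0%, was above the highest parent, the B6 female at 34.4%. At exon 1A the averages were 37.5% ± 0.973 and 22.9% ± 5.89 (SD, n = 4 each), also without overlap. At the Kcnq1ot1 start they were 40.1% ± 4.65 and 17.6% ± 12.2 (SD, n = 4 each), and 22.7% ± 8.16 (SD, n = 3) for the parents without the library labelled B6 male. In all 3 regions the groups did not overlap. Leaving out the B6 male, the lowest parent at the Kcnq1ot1 start, could not change this there. The closest mice at that start were the BXD female at 33.9% and the B6 female at 29.5%. The DXB female had 12 or 13 reads at each of its CGs. At Nesp (47.7% against 45.7%) and XL (54.2% against 51.6%, all 21 CGs) they overlapped.

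Over single CGs, all 4 F1 mice were above all 4 parents at 15 members (13.9%), against 1.82% of all CGs, and below them at 1 member, against 1.71%. Among the 144 runs of intermediate CGs outside the members, all 4 F1 mice were above all 4 parents in 12 (8.33%) and below in 0 (0.00%). CGs of a fragment end are read together. With the strands kept apart, the member CGs with 10 reads in every library lay on 37 ends, with up to 7 CGs each. These counts therefore hold fewer independent measurements than CGs.

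**Figure D3:**
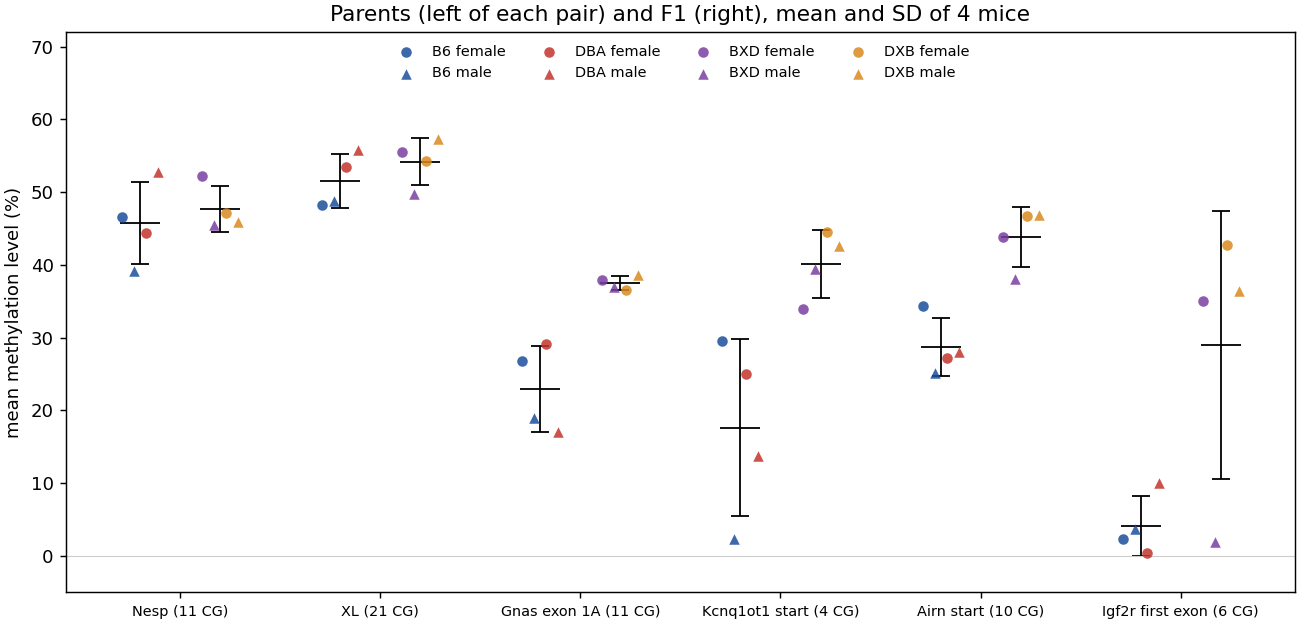
Mean methylation level (%, vertical axis) at 6 regions, parents left and F1 right, with 1 symbol per mouse and black bars for the mean and SD of 4 mice. F1 and parents did not overlap at exon 1A, the Kcnq1ot1 start and the Airn start, and overlapped at Nesp, at XL and, through the BXD male at 1.85%, at the Igf2r first exon.

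**Figure D4:**
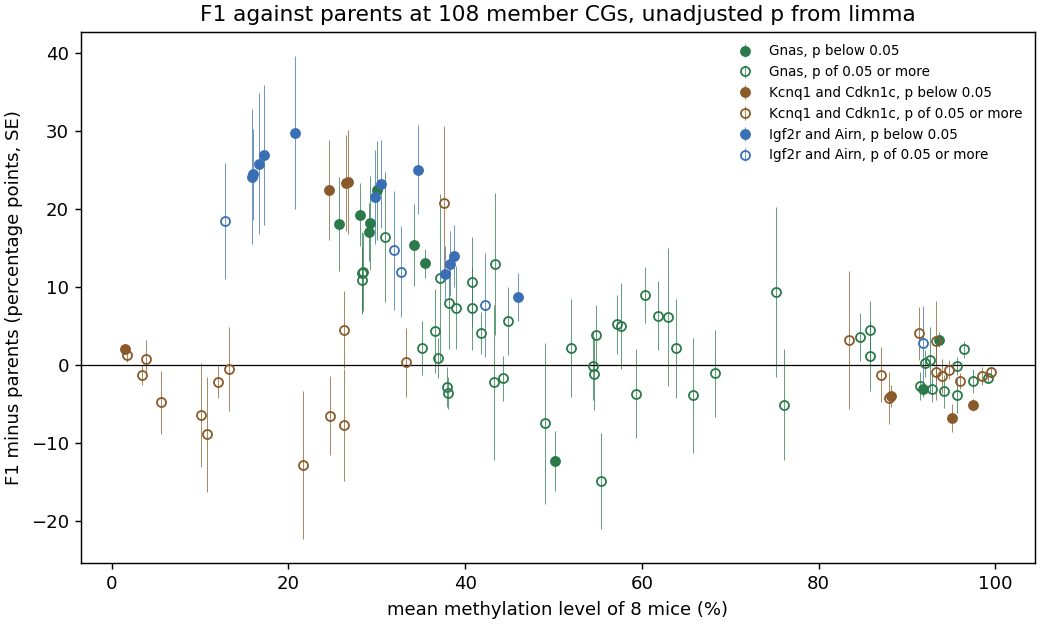
Difference between F1 mice and parents (percentage points, with SE from limma) against the mean level of 8 mice (%) for the 108 member CGs. Filled symbols had an unadjusted p below 0.05 and open ones did not. The filled symbols with the largest positive differences, up to 29.8 points, lay at mean levels below 50%, and CGs above 80% differed little.

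The CG with the largest difference, at 12962376 in the Igf2r first exon, was at 2.33% in the B6 female, 11.1% in the B6 male, 0% in the DBA female, 10% in the DBA male, 43.3% in the BXD female, 3.70% in the BXD male, 50.7% in the DXB female and 44.9% in the DXB male. Its difference of 29.8 ± 9.75 points (SE) had an adjusted p of 0.639 (limma, 0.168 to 0.860 over the alternatives without reach). With the reach of the reads as a further term it was 2.54 points, which is the BXD male against the 2 female parents. Whether a mouse was F1 did not separate the high from the low values at this CG, since the BXD male was with the parents.

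Read reach moved with level in several regions. All 3 libraries of 50-base reach were above the other 5 at 24 members (22.2%), against 2.33% of all CGs, and below them at 2 (1.85%), against 2.58%. With reach as a further term, 11 members had an unadjusted p below 0.05 for F1 against parents (10.2%, against 3.18% of all CGs), of which 8 were higher in F1 (7.41%, against 1.75%), and the median difference of the members was 0.198 points. In the same fit 20 members had an unadjusted p below 0.05 for a reach of 50 bases against longer reach (18.5%, against 5.41%), 17 of them higher at 50 bases (15.7%, against 2.09%), and 0 members passed the adjusted p, against 0.00164% of all CGs. Taken by region, this F1 term is the BXD male minus the mean of the 2 parents of the same 100-base reach. It was 7.22 points at the Airn start, 8.98 at exon 1A, 12.1 at the Kcnq1ot1 start and 0.512 at the Igf2r first exon. The part of reach in these differences was not tested further, and for the other 3 F1 mice reach and F1 cannot be told apart.

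The 3 libraries of 50-base reach were also taken alone, which left 410 members with 10 reads in each and 157 intermediate CGs (38.3%, against 11.3% of the 606854 CGs covered in this way). They held 7 stretches, which added exon 1A, the Kcnq1ot1 start, the Igf2r promoter (from the first exon to upstream of the gene start) and a run of 6 CGs before the Nesp stretch to the 3 described. The run before Nesp was at 29.3% in the BXD female, 27.2% in the DXB female and 61.9% in the DXB male, so that only 1 of its 3 levels was above 30%. These 7 held 129 members (31.5%), and over all CGs 866 such runs held 0.896%. The mean levels were 40.7% ± 0.212 at exon 1A, 45.4% ± 9.15 at the Kcnq1ot1 start, 46.5% ± 4.93 at the Airn start, 40.5% ± 5.14 at the Igf2r promoter and 48.3% ± 1.52 at XL (SD, n = 3). In the 5 libraries of longer reach, each at its own CGs with 10 reads, the same regions were at 27.6% ± 6.84, 22.1% ± 15.3, 31.9% ± 6.14, 5.40% ± 3.20 and 39.2% ± 7.18 (SD, n = 5). The Igf2r promoter differed most: its 3 levels of 34.9 to 45.0% did not overlap the 5 levels of 2.05 to 10%, which came from 5 to 22 CGs a mouse. The sets were also apart at exon 1A (40.4 to 40.8% against 16.4 to 34.8%), at the Airn start (43.2 to 52.1% against 25 to 39.9%) and at XL (46.6 to 49.3% against 27.2 to 46.1%), where each mouse is again taken at its own CGs. At the CGs shared by all 8 mice the Airn start stayed apart (43.8 to 46.8% against 25.2 to 38.0%), whereas exon 1A (36.5 to 38.6% against 16.99 to 36.9%) and XL (54.3 to 57.3% against 48.2 to 55.9%) overlapped. At the Kcnq1ot1 start they overlapped, and without the library labelled B6 male the longer libraries averaged 27.1% ± 12.2 (SD, n = 4).

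**Figure D5:**
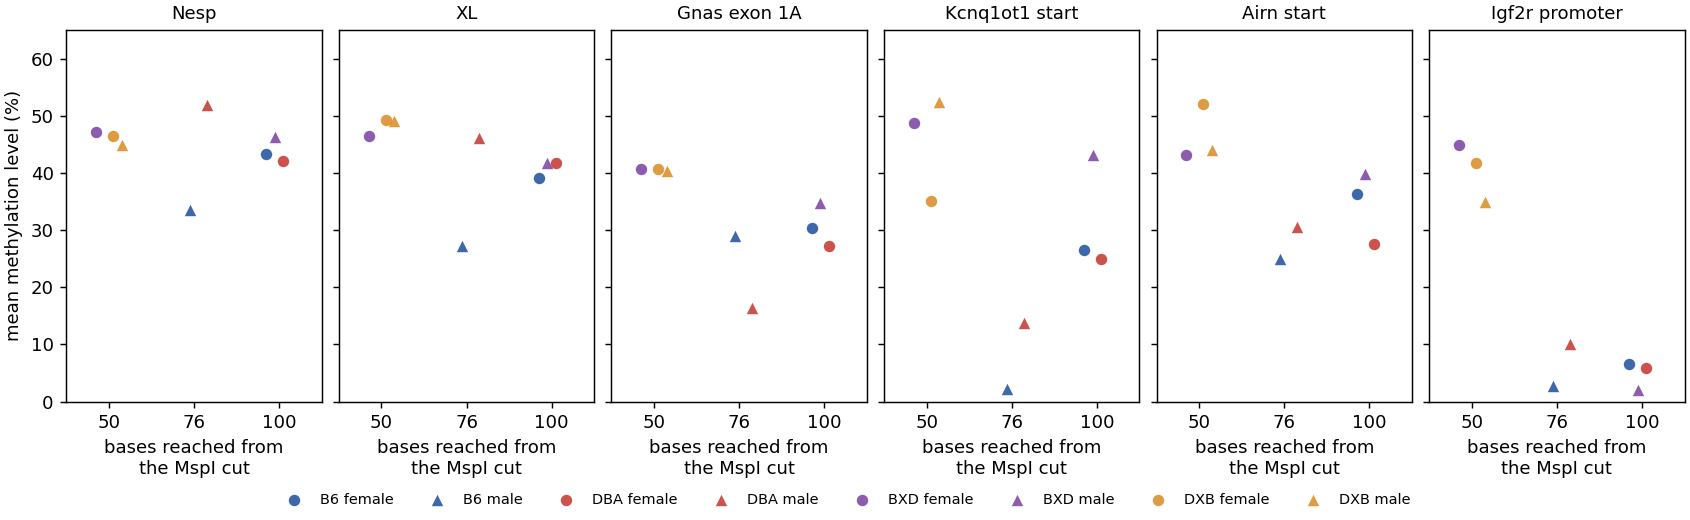
Mean methylation level (%, vertical axis) of each mouse at 6 regions against the bases its reads reached from the MspI cut, each mouse at its own CGs with at least 10 reads. At the Igf2r promoter the 3 libraries of 50 bases lay between 34.9 and 45.0% and the other 5 between 2.05 and 10%; at Nesp the sets overlapped.

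Coverage moved with reach at the Igf2r first exon and at exon 1A as well. The reads per CG, relative to the mean of the same library over all CGs, were 0.836 to 0.920 at the Igf2r first exon in the 3 libraries of 50-base reach and 0.104 to 0.536 in the other 5, and 1.28 to 1.42 against 0.316 to 1.27 at exon 1A. At the Airn start the ranges were 0.389 to 0.455 and 0.242 to 0.906, and at the Kcnq1ot1 start 0.150 to 0.242 and 0.110 to 0.731, so coverage did not separate the sets in these places. Methylation outside CG, a measure of incomplete conversion, was 0.359% over all mice at the Igf2r promoter and 0.200 to 0.683% in the other regions described. Over whole libraries it was 0.911 to 1.21% in the 3 of 50-base reach and 0.401 to 0.742% in the other 5, and by mouse at the Igf2r promoter it was 0.125 to 2.04% and 0 to 0.214%. The part of coverage and of conversion in the differences between these sets was not tested.

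Females and males were compared by limma over the 4 mice of each sex. The members are autosomal, whereas all CGs include those of the X chromosome, where the paper found most of its sex-specific sites. Shares of all CGs in this comparison are therefore not shares of autosomal CGs alone. No member passed the adjusted p, whereas 183 CGs of the genome did (0.0998%), and 3 members had an unadjusted p below 0.05 (2.78%, against 4.95% of all CGs) and 2 by the quasi-binomial model (against 3.55%). The largest difference was at 174163051 in a Gnas intron, 16.3 ± 7.82 points higher in females (SE, adjusted p = 0.867, limma). It was 9.50 points without the DBA male, 6.56 with reach as a further term and 5.81 in the quasi-binomial model. Females stood at 80.8% (B6), 86.7% (DBA), 75.4% (BXD) and 90.7% (DXB), and males at 68%, 46.7%, 82.9% and 70.7%, so the sexes overlapped. No member had all 4 females above all 4 males, against 1.98% of all CGs, and 1 had all 4 below, against 0.804%.

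BXD and DXB mice carry the same autosomal genotype with the parental origin of the strains exchanged. No member and no CG of the genome (0.00%) passed the adjusted p in limma, and 2 members had an unadjusted p below 0.05 (1.85%, against 4.0% of all CGs) and 1 by the quasi-binomial model (against 0.875%). The largest difference was at 12962402 in the Igf2r first exon, where DXB exceeded BXD by 25.1 ± 8.26 points (SE, adjusted p = 1, limma). The BXD female was at 25.8%, the BXD male at 5.56%, the DXB female at 46.4% and the DXB male at 35.1%. The BXD male, the lowest of the 4, also differs from the other 3 in reach. With reach as a further term the difference was 14.9 points, which is both DXB mice against the BXD female alone.

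For each sex, B6 was set against DBA under the rule of the study, in which each level lies outside the 95% binomial interval of the other and the levels differ by more than 50 points. No member met it in females (0.347% of all CGs did) or in males (0.338%). For males this could not show a strain difference at the 32 members of the Kcnq1 cluster if the library labelled B6 male carries DBA chromosomes there, as its tags on both sides do. The largest difference in females was at 174163076 in a Gnas intron, with 70.9% of 79 reads in B6 and 43.3% of 30 reads in DBA. In males it was at 174111062 in the Nesp stretch, with 30.7% of 88 reads in B6 and 78.6% of 14 reads in DBA. These are single mice, and the intervals cover counting error only. With a limit of 20 points, 1 member passed in females and 10 in males (2.82% and 3.66% of all CGs), of which 2 of the 10 were higher in B6.

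Among the neighbouring genes, no CG of Slc22a3, of the Kcnq1 cluster or of the Gnas cluster passed the adjusted p for any of the 3 limma contrasts. Without adjustment 1 of 15, 4 of 106 and 1 of 16 had a p below 0.05 for F1 against parents, where 7.30% of all CGs did. The counts were 3, 5 and 2 for sex (4.95% of all CGs, X chromosome included), and 0, 5 and 0 for BXD against DXB (4.0% of all CGs).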

How the data were processed

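Liver DNA of 8 mice was digested with MspI, size selected, converted with bisulfite and sequenced by the authors, who used BS Seeker for alignment to mm9 and retained unique alignments. For trimming, duplicate handling and the BS Seeker version, nothing is given in the sources used here. The deposited files list, for each cytosine and allele class, counts of unmethylated and methylated reads, and the level as a fraction made by the authors, which was not used beyond a check of its unit. Here the counts of both strands and all allele classes were added per CG. CGs with at least 10 reads in all 8 libraries were kept, and a level is the methylated share in percent. The libraries held 37522700 to 108090251 CG calls, and the kept CGs 81.9 to 183 reads on average. PCR reads carry no molecular identifiers, so binomial intervals cover counting error only. The deposited series tables of strain, sex and allele calls hold the authors' comparisons and were not used.

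Members were assigned with GENCODE M1 and bases were read from NCBIM37, the sequence of mm9. All CG calls lay on CGs of that genome. Groups were compared with limma 3.58.1 in R 4.3.3 on levels, with Benjamini-Hochberg adjustment over all CGs and calls at an adjusted p below 0.05. A quasi-binomial model of the counts (numpy 2.4.6) was the alternative, and parents were compared by the interval rule of the study. On 20000 simulated CGs for the sex comparison, limma recovered 58 of 100 differences of 40 points and 100 of 100 of 70 points, with 10 unchanged CGs called. The quasi-binomial model recovered 46 and 97, with 0. The simulated mice had no strain or reach differences, and adjustment ran over the simulated CGs only. These counts therefore do not give the recovery in the real comparison. The alternatives were other read minima, class limits, gaps, strands, scales, covariates and mice left out.

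The members and gene lists were chosen with earlier results of these data known. All 6 members were described, with every stretch, its CG of largest minimum coverage, and, as no CG was called, the CG with the largest absolute difference in each contrast. The 8 mice are separate animals by strain and sex, and p-values measure the spread between single mice of different strain or sex.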

Additional observations from a re-analysis of the deposited data

Results flagged for a closer look

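Mean levels of all 22 groups of neighbouring member CGs were screened for a mouse that stands apart, in all 8 mice and in females, males, F1 mice and parents. There were 7 results in 110 screens, and chance alone marks about 1 in 20 groups.

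The DBA male stood apart from the other 7 mice in 3 places. At the 6 Gnas CGs between the exon 1A region and the last part of the gene it was at 74.1% and the others between 80.6 and 86.1%. At the 2 Cdkn1c intron CGs it was at 39.8% and the others between 6.45 and 21.8%. At the single Airn CG far from the control region it was at 77.1% and the others between 90 and 98.6%. At each of the Gnas CGs from 174163045 to 174163076 this library had 14 or 15 reads. At the first of the Cdkn1c CGs it had 15, and at the Airn CG it had 35.

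At the 2 Gnas CGs from 174147421 to 174147578 the DXB female was at 83.2% and the others between 91.6 and 99.1%, and among males the DXB male was at 94.5% with the others between 96.5 and 96.8%. At the Kcnq1 intron CG at 150603948 the B6 male was at 93.9% and the other parents between 95.3 and 95.6%. At the CG 3158 bp upstream of Cdkn1c the BXD female was at 43.75% and the other F1 mice between 23.1 and 23.7%. In 3 of these 7 screens the set held 4 mice.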

How the results depend on the processing

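The 3 stretches became 1 with at least 20 reads, 0 with at least 50, since 51 members or fewer remained, 1 with limits of 40 to 60%, and 7 in the 3 libraries of 50-base reach alone. They numbered 3 to 4 in every other setting, with 3 to 4 when a mouse was left out. An exon 1A stretch appeared with limits of 25 to 75% and without the DBA male. With every level required within 20 to 80% the Airn stretch was lost and XL was split into runs of 6 and 5 CGs. With neighbours at most 500 bp apart XL gave runs of 8 and 7 CGs. It held 14 CGs without the BXD female or without the DXB male. The count of members with an unadjusted p below 0.05 for F1 against parents fell from 29 to 11 with reach as a covariate (chosen after seeing the data) and 15 on log odds. It was 14 of 51 members at 20 reads and 44 of 188 at 5 reads (27.5% and 23.4%, against 7.32% and 6.89% of all CGs). It was 13 to 34 when a mouse was left out: 13 without the DXB male, 14 without the DBA male and 18 without the B6 male or the DXB female. For sex, 3 became 1 to 13 (13 without the DXB male, 8 without the BXD male, 1 without the B6 male or the DXB female), and for BXD against DXB, 2 became 1 to 14 (14 without the BXD female, 7 without the DXB male, 5 without either DBA mouse, 4 without either B6 mouse, 1 without the DXB female). No member passed the adjusted p in any limma or quasi-binomial setting, and without adjustment 3, 29, 2 and 20 members passed for sex, F1 against parents, BXD against DXB and reach. Between parents, the count of 0 became 1 in females at 20 points, and in males 10 at 20 points, 3 at 30 points and 2 at 5 reads. Each group of strain and sex has only replicate 1, so that replicate numbers pair no samples. Genotype as a covariate sets the female beside the male of each genotype. With it, 8 members had an unadjusted p below 0.05 for sex (7.41%, against 5.58% of all CGs, X chromosome included) and 0 passed the adjusted p. No member has sorted reads, so the alternatives for maternal against paternal reads could not be fitted beyond other read minima. Depth and the cut sites limit the view: 0.822 to 3.86% of the reference CGs in the windows could be measured in all 8 mice.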
